A study of Mus musculus with 8 samples.

Results

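The dermal papilla is the small knot of mesenchymal cells at the base of the hair follicle, and the dermal condensate is its forerunner in the developing skin. Papilla cells send growth factors and Wnt and BMP signals to the epithelial matrix around them, and their activity follows the hair cycle. The genes described here were 9 genes known for the papilla or the condensate, taken by symbol from a table of 18540 genes: Corin, Alpl, Sox2, Sox18, Prom1, Trps1, Vcan, Ptn and Hgf. All 9 were in the table, and all 9 passed the low-count filter that kept 15147 genes for testing.

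RNA was sequenced from mouse wound skin of 4 control samples, titled con, and 4 treated samples, titled shiyan, which the study's heatmap names Z1C2Z under the same numbers. The wounds, 10 mm across with 2 on the back of each mouse, were injected at the edge with PBS in the control group and with Z1C2Z in the treated group, and the methods give 15 days of treatment. Z1C2Z is a nanocomposite of zinc peroxide and cerium oxide in the zinc framework ZIF-8, the version with more cerium oxide. The study wounded C57BL mice of 6 weeks and diabetic db/db mice of 10 weeks, and the sources used here do not say which of them gave the sequenced skin, nor whether samples share a mouse. The p-values therefore measure the spread between these samples. Each library held 28856790 to 38974888 counts. Markers of the labelled tissue were high in every library, with a summed level of 11970 to 18860 CPM (counts per 1000000, after TMM scaling of library sizes) for 7 epidermal genes and 44030 to 79350 CPM for 8 dermal fibroblast genes.

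None of the 9 genes differed between the groups beyond the threshold, an adjusted p under 0.05 in edgeR's quasi-likelihood test over all genes, where 8.13% of all genes passed. Higher genes made up 4.28% and lower genes 3.85% of all genes. At an unadjusted p under 0.05 edgeR named 4 of the 9, Vcan, Corin, Hgf and Trps1, as it did 4248 of all 15147. DESeq2 called 3 of the 9 at an adjusted p under 0.05, Corin as higher and Hgf and Vcan as lower in the Z1C2Z group, where it called 18.1% of the 15133 genes with an adjusted p (7.97% higher, 10.2% lower). No gene of the 9 had groups that did not overlap, which 17.3% of all genes had (8.45% higher, 8.82% lower). With the fold limit of the study in addition, an absolute log2 fold change over 1, 2.15% of all genes were higher and 1.25% lower, and again none of the 9. Log2 fold changes (Z1C2Z over control) were above 0 for 5 genes and below 0 for 4, and their median was 0.0062 beside 0.0086 over all genes tested.

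**Figure D1:**
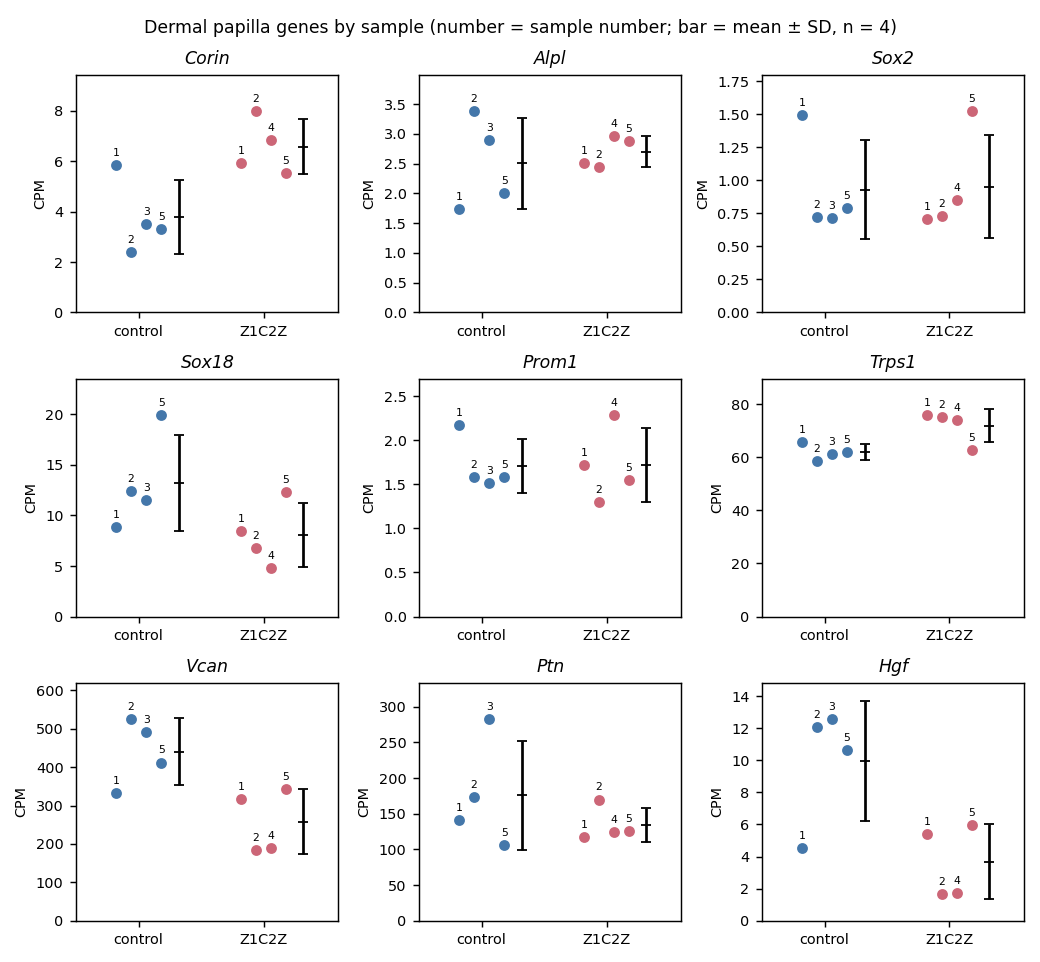
Level of each of the 9 dermal papilla genes in CPM (vertical axis, from 0) in the 4 control and the 4 Z1C2Z samples, with each point marked by its sample number and a bar for the mean ± SD (n = 4). In every panel the groups overlap, and control-1 lies within the range of the Z1C2Z samples for every gene except Alpl.

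Corin encodes a membrane serine protease that activates natriuretic peptides and that papilla cells use to restrain the agouti pigment signal. It had 5.86, 2.41, 3.53 and 3.32 CPM in controls 1, 2, 3 and 5, from 87 to 165 counts. In Z1C2Z samples 1, 2, 4 and 5 it had 5.95, 8.01, 6.86 and 5.52 CPM, from 199 to 309 counts. Of the Z1C2Z samples, 3 lay above every control sample, and Z1C2Z-5 lay just below control-1. The means were 3.78 ± 1.47 CPM for control and 6.58 ± 1.10 CPM for Z1C2Z (SD, n = 4 each). The log2 fold change was 0.80 (standard error, SE, 0.27, 95% interval 0.20 to 1.40), with an edgeR adjusted p of 0.0897. Permuting log2 CPM over the samples (exact, two-sided) gave p = 0.0571, and the smallest value that 4 samples against 4 allow is 0.0286. Without control-1 the log2 fold change was 1.09 and passed the threshold (edgeR adjusted p = 0.0320). DESeq2 on all 8 samples gave 0.80 (adjusted p = 0.0275). Over 13 alternatives the adjusted p of Corin lay between 0.0275 and 0.308.

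Hair shaft and inner root sheath genes moved with the groups as well. Of 20 such genes, 18 were higher in the Z1C2Z group (edgeR adjusted p under 0.05), beside 4.28% of all genes, with a median log2 fold change of 2.66. Their summed level was 708 to 4106 CPM in the control samples and 5000 to 18850 CPM in the Z1C2Z samples, and none of the 20 was at 0. Control-1, the control sample with the highest Corin, had 787 CPM of these genes, near the lowest. A list of 9 hair matrix and follicle stem cell genes summed to 1134 to 1321 CPM in the control samples, highest in control-1. It summed to 1364 to 1571 CPM in the Z1C2Z samples. After the group means were subtracted, log2 CPM of Corin had a Pearson correlation of -0.17 with the log2 sum of the first list. With the second list it was 0.61. Other lists had larger values, -0.86 for blood endothelium, -0.78 for dermal fibroblasts and 0.65 for melanocytes. The part of follicle content and of these other cells in the Corin values was not tested. In bulk tissue, fewer cells of a type and less RNA per cell cannot be told apart.

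The partners of corin were fixed as a list of 10 genes, of which 8 were tested, with 1 higher, 0 lower and 7 that did not pass. Over all genes 4.28% were higher and 3.85% lower. The median log2 fold change of the 8 was -0.01. The exception was Mc1r, the melanocortin receptor of pigment cells, whose ligand competes with agouti. Mc1r stood at 0.660 ± 0.342 CPM (SD, n = 4) in controls but 3.79 ± 1.44 CPM (SD, n = 4) under Z1C2Z, so that log2 expression rose by 2.51 (standard error 0.48; adjusted p = 0.0303 in edgeR). All 6 melanocyte markers tested were also higher past the edgeR threshold, beside 4.28% of all genes. Their summed level was 145 to 244 CPM in the control samples and 311 to 672 CPM in the Z1C2Z samples. Nppa, the classic corin substrate, had 2 counts in control-1 and 0 in the other 7 samples, and it was not tested. Asip, the agouti gene, was on the list but had no entry under that symbol, so it was not analysed here.

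Alpl, Prom1 and Sox2 are the markers by which papilla cells are often stained or sorted. Alpl encodes tissue-nonspecific alkaline phosphatase, whose activity is a classic papilla stain. It had 1.74, 3.39, 2.89 and 2.00 CPM in controls 1, 2, 3 and 5. The 4 Z1C2Z samples held 2.51, 2.44, 2.96 and 2.88 CPM in the order 1, 2, 4 and 5 and lay inside the control range. Alpl had a log2 fold change of 0.10 (95% interval -0.44 to 0.65, edgeR adjusted p = 0.808). The coefficient of variation was 30.6% in the control group and 9.78% in the Z1C2Z group.

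Prom1 encodes prominin-1, or CD133, a pentaspan membrane protein that marks papilla and several stem cell populations. It had 2.17, 1.58, 1.52 and 1.58 CPM in controls 1, 2, 3 and 5, and 1.72, 1.30, 2.29 and 1.55 CPM in Z1C2Z samples 1, 2, 4 and 5. The highest and the lowest sample were both in the Z1C2Z group. For Prom1 the log2 fold change was 0.0062 (95% interval -0.55 to 0.56, edgeR adjusted p = 0.990), and its sign turned with RLE size factors (-0.0018). Its paralog Prom2 was higher in the Z1C2Z group, at 67.7 ± 7.37 against 49.5 ± 3.26 CPM (SD, n = 4 each) or 0.45 on the log2 scale (edgeR adjusted p = 0.0338).

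Sox2 encodes an HMG-box transcription factor that marks the papillae of the larger hair types and also Merkel and Schwann lineage cells. It was the least abundant of the 9 by counts, with 42, 26, 26 and 28 counts in controls 1, 2, 3 and 5. In Z1C2Z samples 1, 2, 4 and 5 it had 25, 28, 34 and 55 counts. Control-1 at 1.49 CPM and Z1C2Z-5 at 1.53 CPM stood above the other 6 samples, which lay between 0.705 and 0.854 CPM. The log2 fold change was 0.04 (95% interval -0.79 to 0.88, edgeR adjusted p = 0.951). Of 5 Merkel cell markers 4 were tested and 0 passed in edgeR. Of the 4, 2 had an unadjusted p under 0.05, beside 4248 of all 15147 genes. The summed level of the 5 markers was 2.88 to 4.25 CPM in the control samples and 3.63 to 10.9 CPM in the Z1C2Z samples. Krt8, Krt18, Krt20 and Isl1 had counts in every sample (log2 fold changes 1.52, 1.67, 0.83 and -0.22), and Atoh1 was at 0 in 7 of the 8 samples. The summed level of 5 Schwann cell markers was 39.3 to 69.5 and 56.6 to 81.7 CPM. The part of these cells in the Sox2 values was not tested. Sox2 lies within the non-coding gene Sox2ot on the same strand, without shared exons in GENCODE M21, and Sox2ot was not analysed here.

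The 250 bases before the RefSeq start of Sox2 (build GRCm38.p6) are shown because Sox2 is a SOX factor whose own promoter held letters of a SOX motif. ACAAAG on either strand is in capitals and lies 206 to 201 bases before the start.
Sox2 (chr3:34649745-34649994, + strand): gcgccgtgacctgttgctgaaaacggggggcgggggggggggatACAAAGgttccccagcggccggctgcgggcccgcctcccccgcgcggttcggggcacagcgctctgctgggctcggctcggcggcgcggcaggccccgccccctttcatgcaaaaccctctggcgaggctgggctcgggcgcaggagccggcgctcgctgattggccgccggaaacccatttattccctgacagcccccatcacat
The motifs searched on both strands were CTTTGAA and CTTTGAT for TCF/LEF factors, ACAAAG and AACAAT for SOX factors, TATAAA and CACGTG, and no 2 matches overlapped. RefSeq gave 10 windows for 7 of the 9 genes. Sox2 and Alpl held ACAAAG, which 16.5% of 32851 RefSeq windows of this length held, and 1 of the 2 Alpl windows also held TATAAA, present in 12.4%. A match of letters is a description of the sequence and no sign of binding.

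Among other SOX genes, of which 12 were tested, 2 were higher, 1 was lower and 9 did not pass. Over all genes 4.28% were higher and 3.85% lower. Sox21 and Sox9, which act in hair follicle epithelium, were higher, with log2 fold changes of 1.19 (SE 0.21, adjusted p = 0.0299 in edgeR) and 0.82 (SE 0.16, adjusted p = 0.0303 in edgeR). Sox9 went from 44.5 ± 8.33 to 78.5 ± 14.8 CPM (SD, n = 4 each). Sox11, a developmental factor, fell from 11.3 ± 2.74 to 4.24 ± 1.42 CPM (SD, n = 4 each), with log2 fold change -1.41 (adjusted p = 0.0303 in edgeR).

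Sox18 encodes an endothelial and lymphatic SOX factor that is also expressed in papillae. It had 8.85, 12.4, 11.5 and 19.9 CPM in controls 1, 2, 3 and 5. In Z1C2Z samples 1, 2, 4 and 5 it had 8.43, 6.76, 4.82 and 12.3 CPM. Of the Z1C2Z samples, 3 lay below every control sample, while Z1C2Z-5 lay among the controls. The log2 fold change was -0.71 (standard error 0.32, 95% interval -1.43 to 0.0092, edgeR adjusted p = 0.183), and no alternative brought it past the threshold (adjusted p 0.0698 to 0.434). Markers of blood endothelium ranged with it. The summed level of 10 such genes was 418 to 1111 CPM in the control samples and 366 to 658 CPM in the Z1C2Z samples. In edgeR 0 of the 10 passed the threshold and 6 had an unadjusted p under 0.05, beside 4248 of all 15147. The median log2 fold change of the 10 was -0.73. After the group means were subtracted, log2 CPM of Sox18 and the log2 summed level of these genes had a Pearson correlation of 0.88 over 8 samples, each pair of values from 1 library. It was 0.84 with each of the dermal fibroblast, smooth muscle and neutrophil lists and -0.25 with lymphatic endothelium. Their part in the Sox18 values was not tested.

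Trps1 encodes a GATA-type zinc finger repressor needed for hair and skeletal development. It was the steadiest of the 9, with a coefficient of variation of 4.89% in the control group and 8.63% in the Z1C2Z group. It had 65.8, 58.5, 61.3 and 62.0 CPM in controls 1, 2, 3 and 5, and 75.9, 75.0, 74.1 and 62.7 CPM in Z1C2Z samples 1, 2, 4 and 5. Of the Z1C2Z samples, 3 lay above every control sample, and Z1C2Z-5 did not. The log2 fold change was 0.22 (standard error 0.09, 95% interval 0.02 to 0.42, edgeR adjusted p = 0.149; exact two-sided permutation test p = 0.0571). Its adjusted p over 13 alternatives was between 0.0672 and 0.607.

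**Figure D2:**
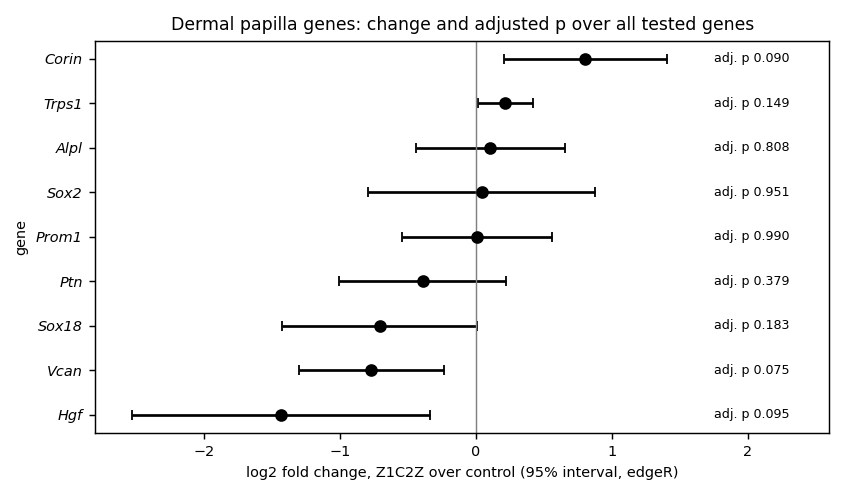
Log2 fold change of Z1C2Z over control from edgeR (horizontal axis) for the 9 dermal papilla genes, with 95% intervals and the adjusted p over all genes tested. The intervals of Corin, Trps1, Vcan and Hgf leave out 0, and no adjusted p is under 0.05.

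The secreted products were versican, pleiotrophin and hepatocyte growth factor. Vcan encodes versican, a large chondroitin sulfate proteoglycan that binds hyaluronan and accumulates in growing papillae and in wound matrix. It had 332, 525, 493 and 412 CPM in controls 1, 2, 3 and 5. In Z1C2Z samples 1, 2, 4 and 5 it had 318, 184, 189 and 343 CPM. Only Z1C2Z-5 overlapped the control samples, lying just above control-1. The means were 441 ± 86.4 and 259 ± 84.0 CPM (SD, n = 4 each), with log2 fold change -0.77 (standard error 0.24, 95% interval -1.30 to -0.23). The edgeR adjusted p was 0.0751 and the exact two-sided permutation test gave p = 0.0571. Without Z1C2Z-5 the log2 fold change was -0.94 and passed (edgeR adjusted p = 0.0403), and DESeq2 gave -0.78 (adjusted p = 0.0115). Over 13 alternatives the adjusted p of Vcan lay between 0.0115 and 0.369.

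Hgf encodes hepatocyte growth factor, the mesenchymal ligand of the epithelial receptor Met. It had the widest range of the 9, 7.58-fold from the lowest to the highest sample. The control samples 1, 2, 3 and 5 had 4.51, 12.1, 12.6 and 10.7 CPM, from 127 to 456 counts. Z1C2Z samples 1, 2, 4 and 5 had 5.39, 1.66, 1.73 and 5.99 CPM, from 64 to 216 counts. Control-1 lay below 2 of the Z1C2Z samples, and the other 3 control samples lay above all 4. The means were 9.96 ± 3.72 and 3.69 ± 2.32 CPM (SD, n = 4 each), with log2 fold change -1.44 (standard error 0.49, 95% interval -2.53 to -0.34). The edgeR adjusted p was 0.0951 and the exact two-sided permutation test gave p = 0.0857. DESeq2 gave -1.44 (adjusted p = 0.0144), the lowest of 13 alternatives, which reached 0.391.

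**Figure D3:**
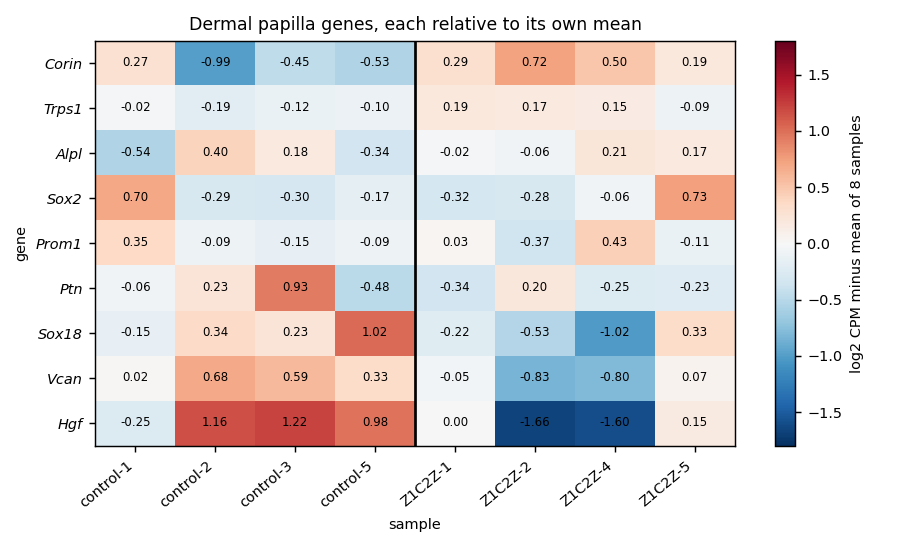
Log2 CPM of each of the 9 genes less its mean over all 8 samples (colour and printed number), with genes in rows and samples in columns and a line between the groups. Hgf and Vcan are lowest in Z1C2Z-2 (-1.66 and -0.83) and Z1C2Z-4 (-1.60 and -0.80), where Corin is high (0.72 and 0.50).

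Hgf and Vcan varied together within the groups. After the group means were subtracted, their log2 CPM had a Pearson correlation of 0.97 over the 8 samples. Corin ran the other way, with -0.76 against Vcan and -0.78 against Hgf. These values describe 8 libraries, in which each gene shares the depth and the cell makeup of its sample. The summed level of the 8 dermal fibroblast markers was 55990 to 79350 CPM in the control samples, lowest in control-1. It was 44030 to 61440 CPM in the Z1C2Z samples. Of the 8 markers, 2 were lower past the threshold and 0 higher, beside 3.85% lower and 4.28% higher over all genes. The within-group correlation of their summed level was 0.95 with Hgf and 0.88 with Vcan. The neutrophil list had 0.84 with Hgf and 0.78 with Vcan, and the blood endothelium list had 0.82 and 0.73. The part of these cells in the values of both genes was not tested.

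The 250 bases before the RefSeq starts (GRCm38.p6) of Corin, Hgf (the first of its 2 starts) and Vcan are shown because these 3 genes had the 3 smallest p-values of the 9 and ran together or apart in the same samples. None of the motifs named above was in these windows, so no base is in capitals. The share of G and C was 51.2% for Corin, 50.8% for Hgf and 62.4% for Vcan.
Corin (chr5:72504541-72504790, - strand): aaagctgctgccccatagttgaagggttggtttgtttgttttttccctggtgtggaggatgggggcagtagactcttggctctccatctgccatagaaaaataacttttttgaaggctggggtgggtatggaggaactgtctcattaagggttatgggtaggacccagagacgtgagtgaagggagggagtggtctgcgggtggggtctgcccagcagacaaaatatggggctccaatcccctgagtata
Hgf (chr5:16553245-16553494, + strand): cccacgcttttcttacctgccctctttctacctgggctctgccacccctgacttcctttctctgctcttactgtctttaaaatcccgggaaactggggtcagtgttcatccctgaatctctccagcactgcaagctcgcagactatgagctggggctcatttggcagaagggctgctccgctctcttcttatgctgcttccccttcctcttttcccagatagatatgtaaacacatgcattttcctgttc
Vcan (chr13:89742513-89742762, - strand): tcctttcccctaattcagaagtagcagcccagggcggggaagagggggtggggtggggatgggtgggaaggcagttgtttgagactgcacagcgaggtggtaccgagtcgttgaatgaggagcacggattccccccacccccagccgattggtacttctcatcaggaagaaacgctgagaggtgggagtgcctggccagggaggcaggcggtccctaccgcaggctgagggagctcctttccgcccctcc

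The partners of Hgf were fixed as 10 genes, of which 9 were tested, with 2 higher, 0 lower and 7 that did not pass. Their median log2 fold change was 0.07, and over all genes 4.28% were higher and 3.85% lower. Met, the receptor, stood at 44.5 ± 5.51 CPM in controls and 38.2 ± 4.76 CPM under Z1C2Z (SD, n = 4 each), with a log2 fold change of -0.22 (adjusted p = 0.269 in edgeR). St14 encodes matriptase, an epithelial protease that cleaves the HGF precursor, and Spint1 encodes HAI-1, an inhibitor of matriptase and of the HGF activator. St14 was higher in the Z1C2Z group, at 107 ± 26.0 against 52.3 ± 5.66 CPM (SD, n = 4 each), with log2 fold change 1.03 (SE 0.17, adjusted p = 0.0299 in edgeR). Spint1 rose with it, by 0.89 on the log2 scale (SE 0.19, adjusted p = 0.0319 in edgeR), so the activating protease and its inhibitor were both higher. Hgfac, the circulating HGF activator, had 1 to 8 counts per sample and was not tested.

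The partners of versican had the largest share of calls among the partner lists. Of 19 genes, 17 were tested, with 1 higher, 7 lower and 9 that did not pass, beside 4.28% higher and 3.85% lower over all genes, and the median log2 fold change was -0.91. Cd44, a hyaluronan receptor, fell from 838 ± 119 to 416 ± 48.8 CPM (SD, n = 4 each), with log2 fold change -1.01 (SE 0.13, adjusted p = 0.0280 in edgeR). The hyaluronan synthase genes Has1 and Has2 fell as well, Has1 from 25.7 ± 19.4 to 1.49 ± 0.793 CPM (SD, n = 4 each, log2 fold change -4.11, edgeR adjusted p = 0.0299). Has2 fell from 39.8 ± 14.5 to 13.9 ± 5.67 CPM (SD, n = 4 each, log2 fold change -1.52, edgeR adjusted p = 0.0363). Tnc, the matrix glycoprotein tenascin-C, fell from 2182 ± 709 to 487 ± 265 CPM (SD, n = 4 each, log2 fold change -2.16, edgeR adjusted p = 0.0300). Of the proteases that cut versican, Adamts1 fell (log2 fold change -0.91, edgeR adjusted p = 0.0303) and Adamts20, known from pigment patterning, rose (1.26, edgeR adjusted p = 0.0333). Adamts9 fell too (-1.01, edgeR adjusted p = 0.0386). Adamts4 (-1.48), Adamts15 (-0.72) and Adamts5 (-0.15) were below 0 and did not pass, so Adamts20 alone was above 0. Cd44, Has1, Has2, Tnc, Adamts1 and Adamts20 were named for the smallest p-values of the list, and such genes tend to have groups that do not overlap. Of the 17 tested, 7 were lower and 1 higher without overlap, beside 8.82% and 8.45% of all genes. Fbln2, also lower past the threshold (log2 fold change -0.92, edgeR adjusted p = 0.0449), had groups that overlapped, as did Vcan.

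**Figure D4:**
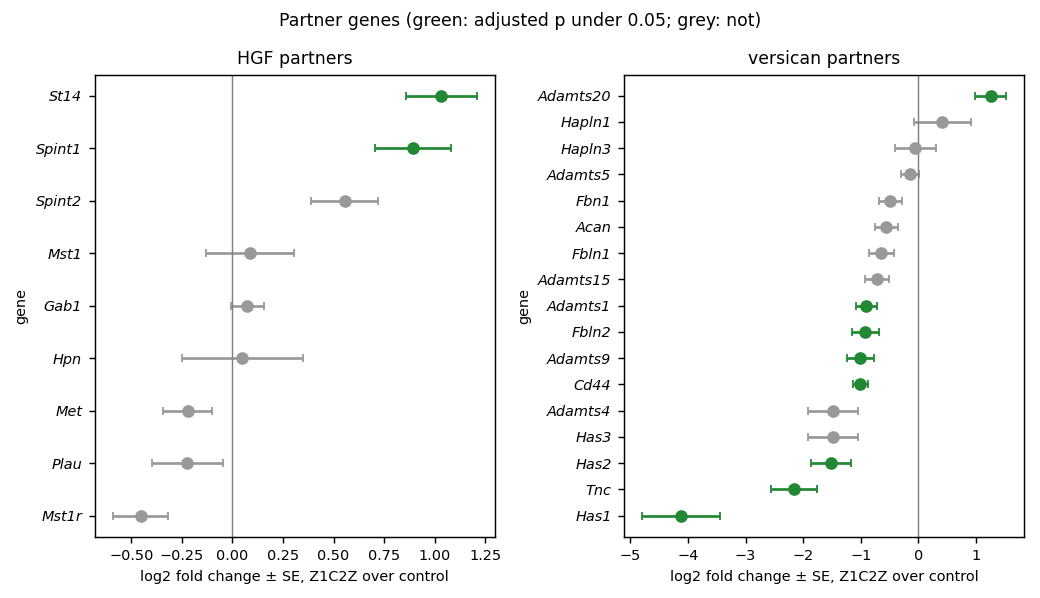
Log2 fold change ± standard error (Z1C2Z over control, edgeR) of the tested HGF partners (left) and versican partners (right), in green where the adjusted p was under 0.05. St14 and Spint1 are higher on the left, and 7 versican partners are lower on the right with Adamts20 alone higher.

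Ptn encodes pleiotrophin, a heparin-binding growth factor of mesenchyme. It had 142, 174, 283 and 106 CPM in controls 1, 2, 3 and 5, and 117, 170, 125 and 126 CPM in Z1C2Z samples 1, 2, 4 and 5. Control-3 stood above the other 7 samples, and the rest of the 2 groups were intermixed. The log2 fold change was -0.39 (SE 0.27, adjusted p = 0.379 in edgeR), with an interval that held 0, and it was -0.06 without control-3. Of 7 related genes and receptors, 6 were tested and 0 passed in edgeR or were higher or lower without overlap. In edgeR 2 of the 6 had an unadjusted p under 0.05, beside 4248 of all 15147 genes. The median log2 fold change of the 6 was -0.25. The most abundant were Ncl, a nucleolar protein that binds pleiotrophin (log2 fold change 0.18, edgeR adjusted p = 0.310), and Lrp1, an endocytic receptor (-0.80, edgeR adjusted p = 0.118). DESeq2 gave Lrp1 an adjusted p of 0.0322.

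The partners of alkaline phosphatase included 5 tested genes of phosphate handling, with 0 higher and 1 lower, beside 4.28% and 3.85% over all genes. Slc20a1, a phosphate transporter, fell from 64.9 ± 12.7 to 38.9 ± 6.88 CPM (SD, n = 4 each), with log2 fold change -0.74 (edgeR adjusted p = 0.0350). Per length (CPM per kilobase of the exon union in GENCODE M21, matched by symbol for all 9 genes), the mean level in the control group ran from Ptn (51.3) and Vcan (30.5) through Sox18 (8.14), Trps1 (4.63), Hgf (1.39), Corin (0.700), Alpl (0.621) and Sox2 (0.452) to Prom1 (0.238). In the control group the sample ranges of Ptn and Vcan overlapped, and so did those of each neighbouring pair from Hgf to Sox2. Values of 2 genes are paired within a library, so overlap of ranges does not decide their order, which was not tested. In the Z1C2Z group the range of Ptn (34.0 to 49.5) lay above that of Vcan (12.7 to 23.7). In the Z1C2Z group Trps1 (5.37) stood above Sox18 (4.99), and Hgf (0.514) stood below Corin (1.22) and Alpl (0.669), but the ranges of Trps1 and Sox18 overlapped, as did those of Hgf and Alpl, while those of Hgf and Corin did not.

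A further 40 genes known for the papilla or condensate formed a list, chosen with earlier results of these data known, and 39 were tested. In the Z1C2Z group 6 were higher, 6 were lower and 27 did not pass, with a median log2 fold change of 0.0048. Over all genes 4.28% were higher and 3.85% lower. The higher genes were Lef1, Bmp4, Notum, Wif1, Rspo2 and Sostdc1. Other Wnt and BMP genes of the list did not pass, among them Wnt5a (log2 fold change 0.38), Bmp6 (0.41), Rspo3 (0.24), Nog (-0.14) and Sfrp2 (-0.59). Lef1, the nuclear partner of beta-catenin, rose from 11.3 ± 4.18 to 37.6 ± 11.2 CPM (SD, n = 4 each), with log2 fold change 1.74 (SE 0.31, adjusted p = 0.0299 in edgeR). Lef1 is also strong in hair matrix cells. Bmp4 rose from 7.29 ± 1.09 to 14.7 ± 3.22 CPM (SD, n = 4 each), with log2 fold change 1.01 (edgeR adjusted p = 0.0300), and Notum, a secreted Wnt deacylase, by 1.11 (edgeR adjusted p = 0.0337).

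The lower genes were Ncam1, Tnn, Fgf7, Runx3, Twist2 and Inhba. Fgf7, a mesenchymal growth factor for keratinocytes, had 46.8, 47.8, 46.7 and 89.6 CPM in the control samples 1, 2, 3 and 5 and 30.9, 17.8, 14.9 and 27.1 CPM in Z1C2Z samples 1, 2, 4 and 5. Every Z1C2Z sample lay below every control sample, with a log2 fold change of -1.35 (SE 0.29, adjusted p = 0.0337 in edgeR). Tnn, tenascin-W, fell from 412 ± 150 to 118 ± 53.9 CPM (SD, n = 4 each, log2 fold change -1.81, edgeR adjusted p = 0.0303). Ncam1, an adhesion molecule of condensates and also of nerve and muscle, fell from 53.8 ± 0.937 to 31.3 ± 5.93 CPM (SD, n = 4 each, log2 fold change -0.78, edgeR adjusted p = 0.0299). The summed level of 8 skeletal muscle markers was 3114 to 5785 CPM in the control samples and 2644 to 2912 CPM in the Z1C2Z samples. The 5 Schwann cell markers had a median log2 fold change of 0.48, with 0 of 5 past the edgeR threshold. Of the 5, 3 had an unadjusted p under 0.05, beside 4248 of all 15147 genes. The part of muscle and nerve in the Ncam1 values was not tested. In edgeR all these calls lay close to the threshold. With control sample 5 or Z1C2Z sample 1, 2 or 4 left out, no gene of the table had an edgeR adjusted p under 0.05, while 3223, 4208, 3137 and 3100 genes had an unadjusted p under 0.05. Without control-2, 25 genes were higher and 98 lower.

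**Figure D5:**
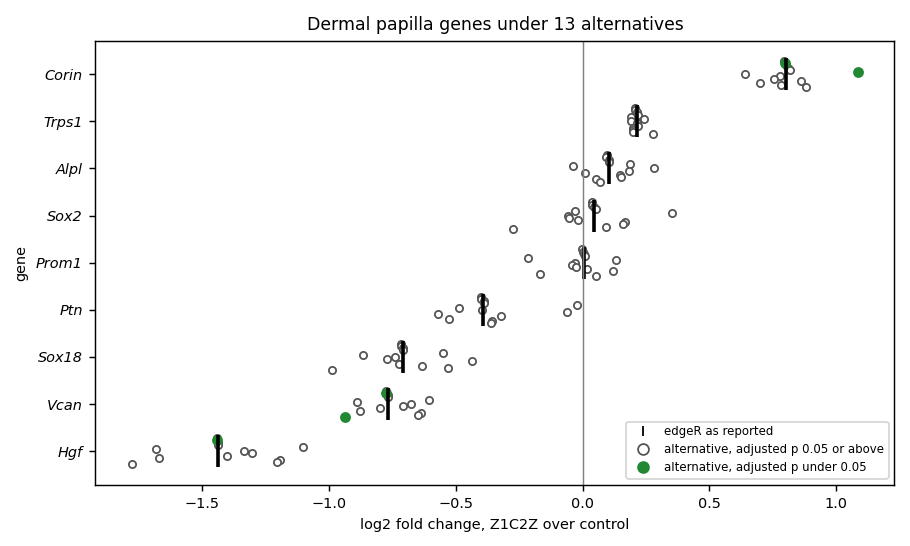
Log2 fold change of Z1C2Z over control (horizontal axis) for the 9 dermal papilla genes as reported (black bar) and under 13 alternatives (circles, green where the adjusted p is under 0.05). Corin stays above 0 and Hgf, Vcan and Sox18 stay below 0 under each alternative, and green circles occur for Corin, Vcan and Hgf only.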

How the data were processed

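Total RNA from mouse wound skin was depleted of ribosomal RNA and sequenced after random-primed cDNA synthesis with dUTP in the second strand, per the labels. The authors deposited raw read counts per gene in 1 table, without normalization, with KEGG and GO annotation. The aligner, counter, genome build and strand setting are not given in the sources used here, so overlapping antisense genes, such as those with exons over Corin and Prom1, cannot be separated. The table held 0 further columns of per-sample values.

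Groups came from the sample titles. The test was that of edgeR 4.0.16 under R 4.3.3 (counts, filterByExpr, TMM, quasi-likelihood test, no covariates, Benjamini-Hochberg over 15147 genes). Log2 CPM used a prior count of 2. Standard errors and 95% intervals came from the quasi-likelihood F statistic. Single genes were also given an exact two-sided permutation test (70 arrangements, SciPy 1.17.1). The smallest chi-square between 2 libraries was 21.7 per degree of freedom, so each counted as 1 sample. In simulated counts for this comparison over 15147 genes, where 200 were shifted by 2 on the log2 scale, edgeR recovered 183 (91.5%) and called 5 that were not shifted. Alternatives were DESeq2 1.42.0, RLE size factors, other filters, the replicate number as a block, a fold threshold and each sample left out.

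The 9 genes and all lists were chosen with earlier results of these data known. From the partner lists the text names up to 6 genes with an adjusted p under 0.05, smallest p first, or else the 2 most abundant. Met, Nppa, Hgfac, the Merkel cell genes, the Wnt and BMP genes that did not pass and the remaining names of changed papilla genes were added after their values were seen. The same holds for Fbln2, Adamts4, Adamts5, Adamts9 and Adamts15. Promoter sequences are those of RefSeq (GRCm38.p6), of which the 250 bases before the start were used.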

Additional observations from a re-analysis of the deposited data

Results flagged for a closer look

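A sample stood apart from the other 3 of its group, by Dixon's criterion for 4 values, in 8 of 90 groups of values, where chance gives about 1 in 20. Sox2 was high in control-1 (1.49 CPM, the next control sample at 0.789 CPM). Prom1 was high in the same sample (2.17 CPM, the next at 1.58 CPM). Trps1 was low in Z1C2Z-5 (62.7 CPM, the next at 74.1 CPM). Ptn was high in Z1C2Z-2 (170.0 CPM, the next at 126 CPM). Fgf7 was high in control-5 (89.6 CPM, the next at 47.8 CPM). Slc20a1 was high in 1 control sample (83.8 CPM, the next at 60.1 CPM). The summed level of 9 hair matrix and follicle stem cell genes was high in control-1 (1321 CPM, the next at 1164 CPM), and that of 5 adipocyte genes was low in control-2 (466 CPM, the next at 543 CPM).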

How the results depend on the processing

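Of the 9 dermal papilla genes, 0 were higher and 0 lower past the edgeR threshold, and DESeq2 called 1 higher and 2 lower. With 1 sample left out at a time, 0 to 1 were higher and 0 to 1 lower. Over all genes, 648 were higher and 583 lower, with 1206 and 1539 in DESeq2, 301 and 253 with the replicate block, 326 and 189 with an absolute log2 fold change over 1 in addition, and 0 to 886 and 0 to 868 with 1 sample left out. The cause of these shifts was not tested. The sign turned for genes near 0. Sox2 was -0.029 with the replicate block and -0.27 to 0.35 with 1 sample left out, Prom1 was -0.0018 with RLE size factors, -0.21 with the replicate block and -0.17 to 0.13 with 1 sample left out, and Alpl was -0.037 to 0.28 with 1 sample left out. Under the replicate block, none of the 9 genes passed (edgeR). There 1 of the 9, Sox18, had an unadjusted p under 0.05, beside 16.8% of all genes. The numbers 1, 2 and 5 occur in both groups, and deviations of same-numbered samples correlated at -0.10, -0.06 and 0.32 across genes, in that order. Without values for differently numbered samples beside them, these correlations do not decide whether same-numbered samples share a mouse. Counts were low for Sox2 (25 to 55 per sample) and Prom1 (50 to 91), and depth and sample spread were not separated.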

Other observations

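For each of the 9 genes the tested genes of at least 1 CPM with the most alike pattern were found by the Pearson correlation of log2 CPM, less the group means, over 8 samples. With 14068 genes to choose from, high values are found for any pattern, so these are descriptions. Vcan was most like Zeb1, a mesenchymal transcription factor (0.997), and Kcnd1 (0.989). Hgf was most like Sec31a (0.996) and Scaf8 (0.995), and Corin was most like Ces1d (0.990) and Tdp2 (0.989). Sox18 was most like Gpr176 (0.984) and B3gnt3 (0.983), and of these Gpr176 was lower in the Z1C2Z group (log2 fold change -1.45, edgeR adjusted p = 0.0303). Ptn was most like Tram1l1 (0.986) and Cdkn1c (0.980), Trps1 like Dqx1 (0.980) and Msl3l2 (0.977), Alpl like Ypel2 (0.981) and Pla2g4e (0.971), Prom1 like Ankrd35 (0.968) and Tgm5 (0.964), and Sox2 like Tlk2 (0.967) and Sco1 (0.966).

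Other cells of the skin differed as follows. Of 7 smooth muscle and dermal sheath genes, 3 were lower and 0 higher, with a summed level of 1163 to 1778 CPM in the control samples and 830 to 975 CPM in the Z1C2Z samples. Of 9 hair matrix and follicle stem cell genes, 2 were higher and 2 lower. Over all genes 4.28% were higher and 3.85% lower. In edgeR 0 genes passed for blood and lymphatic endothelium, Schwann cells, Merkel cells, macrophages, neutrophils, adipocytes and interfollicular epidermis. These lists had 6, 2, 3, 2, 1, 3, 3 and 2 genes, in that order, at an unadjusted p under 0.05. They had 10, 5, 5, 4, 5, 6, 5 and 7 tested genes, and 4248 of all 15147 genes reached that p. Neutrophil markers summed to 606 to 1551 CPM in the control samples and 174 to 712 CPM in the Z1C2Z samples.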
